A study of Mus musculus with 6 samples.

Results

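The DMRT family was followed in ovaries of E15.5 mouse embryos, through every probe set that the platform annotation assigns to exactly one of 8 genes: Dmrt1, Dmrt2, Dmrt3, Dmrta1, Dmrta2, Dmrtb1, Dmrtc1a and Dmrtc2. All 8 genes were on the array, with 12 of its 45037 non-control probe sets and 8 of its 18193 singly named genes. The 6 Affymetrix arrays held total RNA of ovaries from 3 samples labelled dmrt1 knockout, described for the series as a conditional removal of Dmrt1, and from 3 samples labelled WT. The labels give no strain, no Cre driver, no age other than E15.5, and no statement that replicates came from separate embryos or litters, so p-values here measure the spread between the deposited samples alone, and that spread may be technical. Because whole ovaries were measured, fewer cells of a type and less RNA per cell cannot be told apart.

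DMRT proteins are transcription factors that bind DNA through the DM domain, a zinc module first described in the fly gene doublesex and the worm gene mab-3. Dmrt1 acts in germ cells and in Sertoli cells of the testis, and in the fetal ovary it has been linked to the induction of Stra8 at the entry into meiosis. Other members are best known elsewhere: Dmrt2 in somites, Dmrt3 in spinal interneurons, Dmrta2 in the developing cortex, and Dmrtb1 and Dmrtc2 in male germ cells, while Dmrta1 has been linked to the number of oocytes per follicle.

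The deposited values are GCRMA intensities, and a probe set was tested when it reached an intensity of 16 (log2 of 4) on at least 3 of the 6 arrays. Values of a group are listed in the order of its replicates, 1 to 3. The floor was gauged with 80 probe sets of odorant and vomeronasal receptor genes, whose 95th percentile was 7.10 to 7.49 intensity units on knockout arrays and 5.02 to 5.32 on wild-type arrays. Of these 80 probe sets 60 had a higher mean in knockout, and the median difference over all 80 was 0.08 log2 units. The 13 probe sets of Y-linked genes peaked at 7.95 to 12.6 on the 6 arrays. The median over a whole array was 13.1 to 13.4 for knockout, against 14.4 to 14.7 for wild type. The 3 probe sets of Xist, the RNA that silences an X chromosome, averaged log2 1.81 on knockout replicate 1 against 9.75 to 10.9 on the other 5 arrays, so differences without that array are also given for the members and for Lypd4, Cdkn2a, Ldhc, Tesc and Sox2.

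Of the 8 genes, 4 passed the filter: Dmrta1, Dmrta2, Dmrtc1a and Dmrtc2, of which Dmrta2 passed it through its knockout arrays alone. Dmrta1 alone passed the test, higher in knockout. Among all 11897 genes tested, each through its brightest probe set, 3.55% passed in either direction and 1.28% passed as higher and 2.27% as lower in knockout. The other 4 genes were not tested: Dmrt1 and Dmrtb1 never reached 16, and Dmrt2 and Dmrt3 reached it on 1 array each. Of these, Dmrt2 and Dmrt3 lay above the receptor 95th percentile on all 6 arrays, Dmrt1 on 5 and Dmrtb1 on 3. The median log2 difference of the 4 tested genes was 0.46, beside 0.02 over all genes tested. Dmrta2 entered through its knockout arrays alone, and Dmrtc1a through 2 knockout arrays and 1 wild-type array. The median is therefore a description, not support for a rise of the family. With values under the filter level set at that level, the median of these 4 was 0.39, with no like value over all genes. Without that setting the median over all 8 genes was 0.33, which includes the 4 untested genes and so has no like value over all genes.

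**Figure D1:**
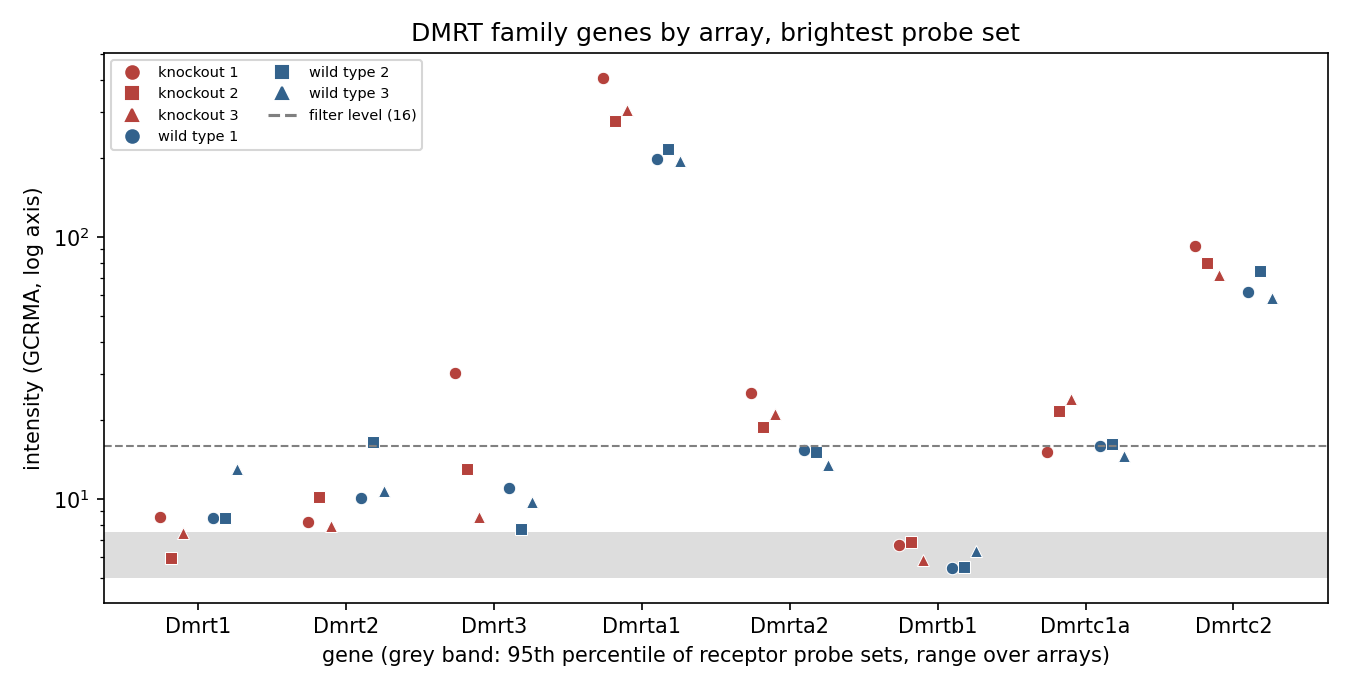
Intensity (GCRMA units, log axis) of the 8 DMRT genes through their brightest probe sets, 1 point per array. The dashed line is the filter level of 16 and the grey band spans the 95th percentiles of the receptor probe sets, 5.02 to 7.49. Dmrta1 and Dmrtc2 lie above the line on all 6 arrays, and Dmrtb1 lies within the band.

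Dmrt1, the gene named in the knockout labels, had a single probe set, under the filter level on every array and above the receptor 95th percentile on 5 of 6. It read 8.55, 5.97 and 7.46 intensity units in the knockout arrays and 8.47, 8.51 and 13.02 in the wild-type arrays. The groups overlapped, and wild-type replicate 3 stood above the rest, with 0 of 80 receptor probe sets at its level or over. In a fit without the filter the log2 difference was -0.43 (limma 95% interval -0.88 to 0.02, adjusted p = 0.258), and without knockout replicate 1 it was -0.55. The sources used here do not place this probe set inside or outside the deleted part, so it does not check the labels.

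Dmrtb1, also called Dmrt6, which in testis acts as spermatogonia leave mitosis for meiosis, stayed between 5.46 and 6.89 intensity units over all 6 arrays. These values lie within the range of the receptor gauge, above its 95th percentile on 3 arrays and under it on the other 3, and no difference can be read from them. Its log2 means were 2.69 ± 0.13 in knockout and 2.53 ± 0.12 in wild type (SD, n = 3 each), a difference of 0.17, or 0.14 without knockout replicate 1.

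Dmrtc2, also called Dmrt7, which male germ cells need in pachytene, was above the filter level on all 6 arrays. It read 92.4, 79.5 and 71.5 intensity units in the knockout arrays and 61.9, 74.4 and 58.8 in the wild-type arrays. Wild-type replicate 2 exceeded knockout replicate 3, so the groups overlapped. The log2 difference of 0.32 ± 0.18 (SE) did not pass (limma adjusted p = 0.367), and its 95% interval of -0.09 to 0.73 includes both no change and a rise larger than the 0.32 measured. Without knockout replicate 1 it was 0.22 (limma adjusted p = 0.606).

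Dmrt2, a regulator of the myotome in somites, exceeded 16 on 1 array. It read 8.22, 10.2 and 7.92 intensity units in the knockout arrays and 10.1, 16.5 and 10.7 in the wild-type arrays. The lowest knockout values lay under all wild-type values, while knockout replicate 2 lay between them. The log2 difference in the fit without the filter was -0.47 (95% interval -0.93 to -0.02), and it did not pass (limma adjusted p = 0.221). With values under the filter level set at that level, almost nothing of it was left (-0.015), and without knockout replicate 1 it was -0.43.

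Dmrt3, a factor of spinal interneurons, had 4 probe sets, and they disagreed. Its brightest read 30.5, 13.1 and 8.56 intensity units in the knockout arrays and 11.0, 7.67 and 9.75 in the wild-type arrays. A single array, knockout replicate 1, was above the filter level, and the knockout SD of 0.93 log2 units exceeded the mean difference of 0.68. Without that array the difference was 0.18.

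The 3 remaining Dmrt3 probe sets never passed 6.05 intensity units. Of these, the second brightest read 6.05, 5.91 and 5.25 in knockout and 4.29, 4.17 and 4.63 in wild type, groups that did not overlap at a level below the receptor gauge of each array. Its log2 difference of 0.39 did not pass without the filter (limma adjusted p = 0.0696). The other two differed by 0.16 and -0.05 with overlapping groups. Of the receptor probe sets, whose median was lower still (2.73 to 3.20), 24 of 80 had every knockout array above every wild-type array.

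**Figure D2:**
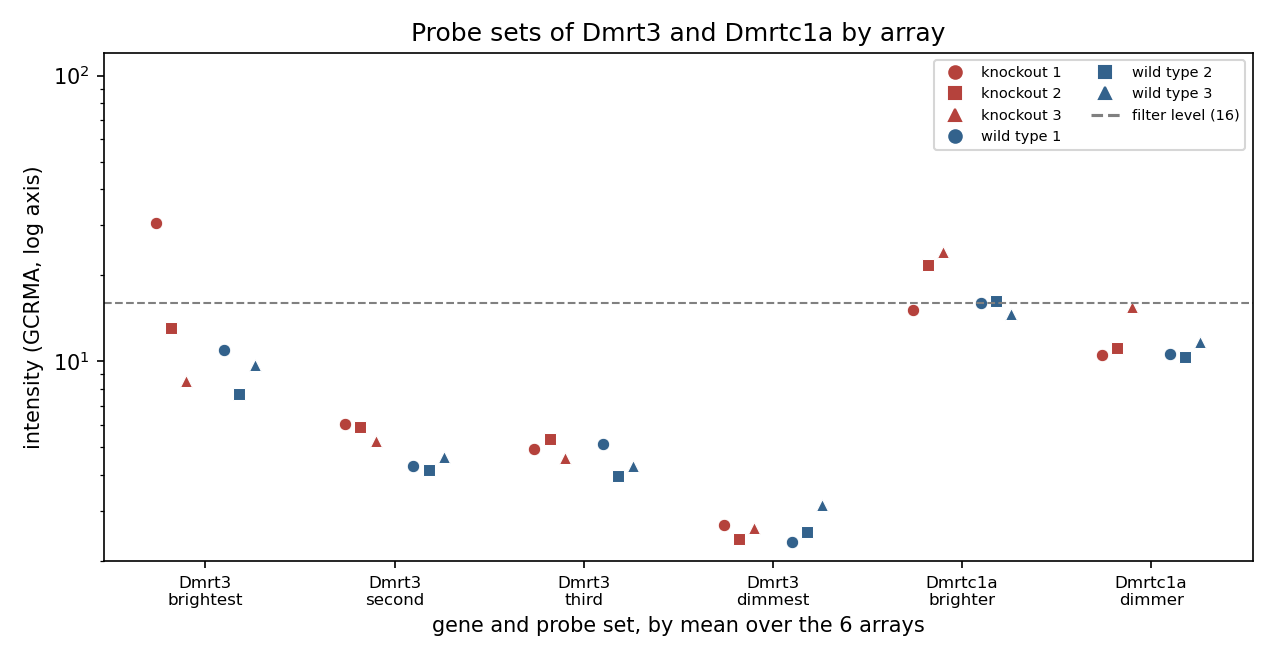
Intensity (GCRMA units, log axis) of the 4 probe sets of Dmrt3 and the 2 of Dmrtc1a, 1 point per array, with the filter level of 16 dashed. The value of 30.5 for Dmrt3 on knockout replicate 1 appears in its brightest probe set alone, and the value of 21.7 for Dmrtc1a on knockout replicate 2 in its brighter probe set alone.

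Dmrta1, also called Dmrt4, was the gene of this family that changed. The single probe set of this gene gave 406, 279 and 307 intensity units in the knockout arrays and 200, 217 and 196 in the wild-type arrays. Every knockout array exceeded every wild-type array, and all 6 were far above the filter level and the receptor gauge. Of all genes tested, 12.3% had the 3 knockout arrays above the wild-type arrays in the same way. Dmrta1 rose 1.60-fold, from log2 7.67 ± 0.08 in wild type to 8.35 ± 0.28 in knockout (SD, n = 3 each), a difference of 0.68 ± 0.17 (SE, 95% interval 0.29 to 1.07, limma adjusted p = 0.0452). Ranked by the size of the rise it was number 194 of 11897 genes.

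The call lies close to the threshold. Its direction held without any single array (0.52 to 0.79), but the call ended without knockout replicate 1 (difference 0.52, limma adjusted p = 0.122), without knockout replicate 3 (0.0616) or without any 1 wild-type array (0.112 to 0.159), and with the replicate number as a block (0.104). It also ended with either stricter filter (0.0504 and 0.0631), with low values set at the filter level (0.0578) and with averaged probe sets (0.061).

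Dmrta2, also called Dmrt5, a factor of cortical and hippocampal patterning, followed the same order of arrays in knockout at a far dimmer signal. It read 25.4, 18.9 and 21.2 intensity units in the knockout arrays and 15.4, 15.1 and 13.6 in the wild-type arrays. The groups did not overlap, but Dmrta2 entered the test only through its knockout arrays, all 3 wild-type arrays being under the filter level. Its difference of 0.56 ± 0.18 (SE, 95% interval 0.15 to 0.97) did not pass (limma adjusted p = 0.109), and set against the filter level the knockout mean was 1.35-fold higher. Without knockout replicate 1 the difference was 0.45 (limma adjusted p = 0.246). The RefSeq table places a noncoding gene, Dmrta2os, across the start of Dmrta2 on the opposite strand.

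Over the 6 arrays the log2 values of Dmrta1 and Dmrta2 had a Pearson correlation of 0.986, a description of arrays that share the 2 genotype groups. In both genes knockout replicate 1 was highest, then replicate 3, then replicate 2. The correlation of Dmrtc2 with Dmrta1 was 0.88, and that of Dmrtc1a with Dmrta1 was 0.30.

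**Figure D3:**
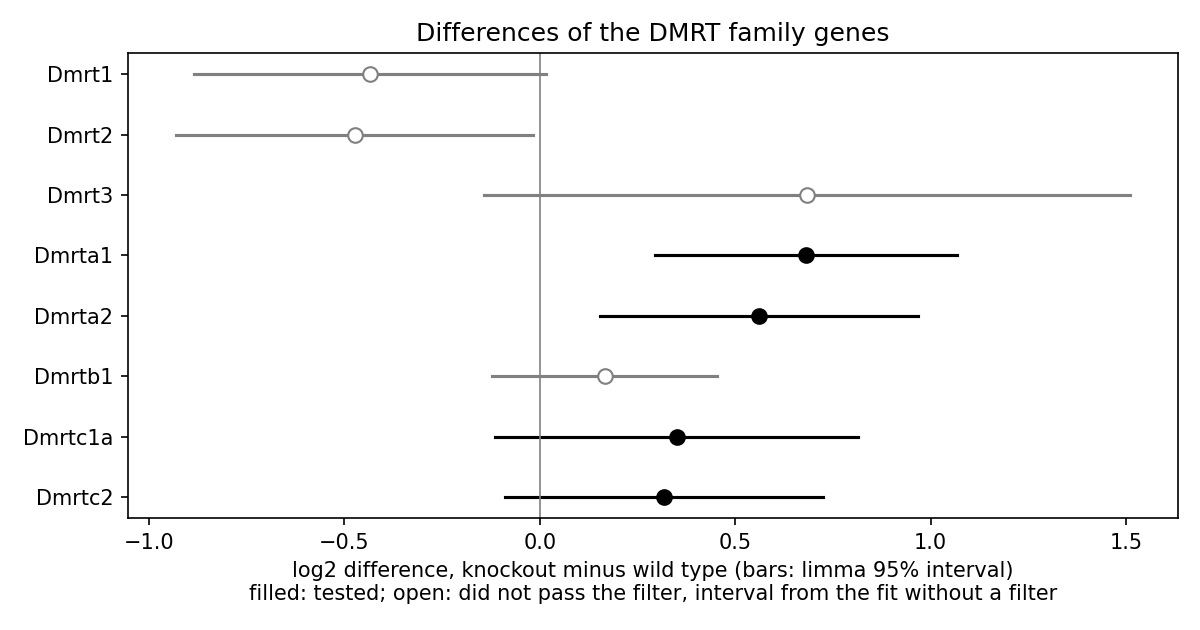
Log2 difference, knockout minus wild type, of each DMRT gene through its brightest probe set, with limma's 95% interval. Filled points are the 4 tested genes and open points the 4 genes that did not pass the filter, with intervals from the fit without a filter. The intervals are not adjusted for the number of probe sets tested. Among the tested genes those of Dmrta1 (0.29 to 1.07) and Dmrta2 (0.15 to 0.97) lie above 0. Dmrta1 alone passed the test, while Dmrta2 did not (limma adjusted p = 0.109) and entered it through its knockout arrays alone.

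Promoter sequences of Dmrta1 and Dmrta2 are shown because these members were higher on every knockout array, together with that of Dmrtc2, which shares its start region with a neighbour described further on. Each is a window from RefSeq (GRCm38.p6), 250 bases before to 50 bases after an annotated start, on the plus strand, 5′ to 3′. The windows are chr4:89687948-89688247 for Dmrta1, chr4:109977775-109978074 for Dmrta2 and chr7:24869807-24870106 for Dmrtc2. Capitals in Dmrta2 mark the letters ACATTGT, a core of the element that DM domain proteins prefer, and capitals in Dmrtc2 mark the 135 bases shared with the promoter window of Lypd4.
Dmrta1: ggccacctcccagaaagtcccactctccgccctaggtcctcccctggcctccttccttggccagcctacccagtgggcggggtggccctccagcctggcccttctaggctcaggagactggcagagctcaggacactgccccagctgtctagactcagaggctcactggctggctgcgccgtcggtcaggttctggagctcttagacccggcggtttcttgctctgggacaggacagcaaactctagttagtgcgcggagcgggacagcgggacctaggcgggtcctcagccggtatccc
Dmrta2: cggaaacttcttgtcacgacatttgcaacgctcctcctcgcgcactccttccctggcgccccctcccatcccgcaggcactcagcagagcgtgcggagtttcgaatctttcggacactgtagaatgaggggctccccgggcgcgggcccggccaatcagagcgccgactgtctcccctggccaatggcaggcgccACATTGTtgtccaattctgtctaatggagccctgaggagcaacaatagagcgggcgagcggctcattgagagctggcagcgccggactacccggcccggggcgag
Dmrtc2: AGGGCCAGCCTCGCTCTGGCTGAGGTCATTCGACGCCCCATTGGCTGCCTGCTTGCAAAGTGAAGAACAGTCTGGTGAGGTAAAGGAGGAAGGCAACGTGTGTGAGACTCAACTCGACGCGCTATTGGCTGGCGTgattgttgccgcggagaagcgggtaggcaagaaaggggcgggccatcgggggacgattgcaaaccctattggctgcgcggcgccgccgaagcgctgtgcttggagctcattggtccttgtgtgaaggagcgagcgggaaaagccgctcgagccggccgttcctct

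The search took ACATTGT on both strands (ACATTGT or ACAATGT), with no other motif overlapping it in the search. It was found in 1 of 10 windows of the 7 members that the promoter table lists, that of Dmrta2, with its first base 55 bases before the annotated start. Among all 32851 promoter windows of the same length 2.96% held it. The Dmrta1 window held none of these letters. A match is a description of letters, not of a bound site, and a window without one says nothing about the factor.

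Dmrtc1a, an X-linked member with near-identical neighbouring copies, was at the edge of the filter. Its brighter probe set read 15.1, 21.7 and 24.1 intensity units in the knockout arrays and 15.95, 16.3 and 14.7 in the wild-type arrays. Knockout replicate 1, the array without Xist signal, read as the wild-type arrays did, and the other knockout arrays read higher. The difference of 0.35 ± 0.21 (SE, 95% interval -0.11 to 0.81) did not pass (limma adjusted p = 0.386), and without knockout replicate 1 it was 0.55 and did not pass (0.15). The part of the missing Xist signal in this was not tested.

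The second Dmrtc1a probe set, of a kind that can match several transcripts, lay under the filter level on all 6 arrays. It read 10.4 to 15.45 intensity units, with its highest value on knockout replicate 3 and a mean difference of 0.17. How the family's near-identical copies share signal on either probe set is uncertain.

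The genes flanking the members were read from the same fit, the 5 protein-coding genes on each side of the Dmrt1, Dmrt3 and Dmrt2 cluster on chromosome 19 and the 3 on each side of each other member. They were taken by order on the chromosome, at distances of up to 2450 kb. Of 40 such genes 18 were tested, 2 rose, Cdkn2a and Lypd4, and 0 fell. Among all 11897 genes tested 1.28% passed as higher and 2.27% as lower in knockout. Cdkn2a passed the filter through its knockout arrays alone, so the count of 2 is a description. Beside the cluster that holds Dmrt1, 0 of 6 tested neighbours passed. Kank1, the nearest gene before Dmrt1, lies 71.1 kb away. It read 65.2 to 70.2 intensity units over all 6 arrays and differed by 0.01 ± 0.16 (SE, limma adjusted p = 0.98). Smarca2, a chromatin remodelling ATPase and the nearest gene after Dmrt2, 926 kb away, differed by -0.06 ± 0.14 (limma adjusted p = 0.867).

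Lypd4, which lies next to Dmrtc2 on the opposite strand with its start in the same region, rose 2.18-fold. It read 1330, 763 and 967 intensity units in the knockout arrays and 407, 648 and 359 in the wild-type arrays. The groups did not overlap, and Lypd4 differed by 1.12 ± 0.25 (SE, limma adjusted p = 0.0238), while that of Dmrtc2 on the other side of the shared start was 0.32 and did not pass. Whether these 2 differences differ from each other was not tested. The Lypd4 call ended in 4 of the 6 fits that left out an array, knockout replicate 1 (difference 0.91, adjusted p = 0.0747), knockout replicate 3 (0.0557), wild-type replicate 1 (0.102) and wild-type replicate 3 (0.0854), and with eBayes without the trend (0.052).

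Cdkn2a, which encodes cell cycle inhibitors, lies 394 kb from Dmrta1 with Cdkn2b between them, and was dim and higher in knockout. It read 26.0, 23.7 and 23.2 intensity units in the knockout arrays and 12.7, 14.9 and 14.4 in the wild-type arrays. All wild-type values lay under the filter level, so Cdkn2a entered the test only through its knockout arrays. Set against the filter level the knockout mean was 1.52-fold higher. The fitted log2 difference was 0.80 ± 0.17 (SE, limma adjusted p = 0.0199). Cdkn2b, the gene on that side nearest to Dmrta1, reached 16.03 at most and was not tested. Zfp352, on the other side, stayed at or under 6.56. The Cdkn2a call ended without knockout replicate 1 (difference 0.75, adjusted p = 0.0562), without any 1 wild-type array (0.0575 to 0.0834) and with the replicate block (0.0654).

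**Figure D4:**
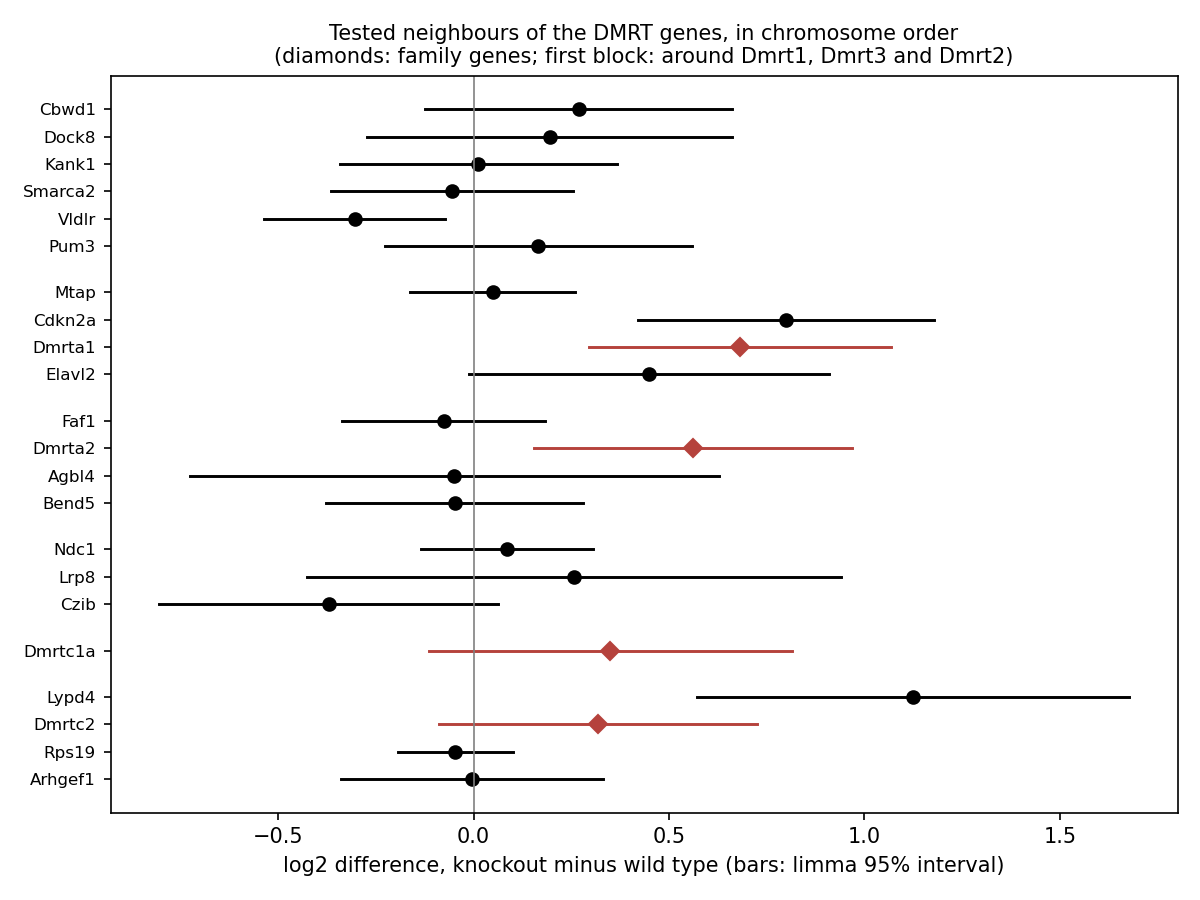
Log2 difference, knockout minus wild type, with limma's 95% interval, of the 18 tested neighbours (circles) and the 4 tested DMRT genes (diamonds), in chromosome order within each block. Lypd4 (1.12) and Cdkn2a (0.80) are the neighbours that passed the test, and the 6 genes around the Dmrt1 cluster did not pass.

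Tissues in which some other members act were checked through marker lists, with none for spinal interneurons (Dmrt3) or spermatogonia (Dmrtb1). Of 12 myotome and muscle genes, the setting of Dmrt2, 10 never reached the filter level, and the 1 tested, the myosin Myh8, differed by 0.21 ± 0.31 (SE, limma adjusted p = 0.752). Of 11 forebrain and neuron genes on the array, the setting of Dmrta2, 10 never reached it. The 1 tested, Dcx, a microtubule protein of migrating neurons, differed by -0.50 ± 0.31 (limma adjusted p = 0.411). Of 12 spermatocyte and spermatid genes, the setting of Dmrtc2, 9 never reached it, 1 of 3 tested rose and 0 fell. That gene was Ldhc, a lactate dehydrogenase of germ cells (0.84 ± 0.20, SE, limma adjusted p = 0.0342), with all wild-type arrays under the filter level. Its call ended on leaving out any of 5 arrays (0.0819 to 0.136; without knockout replicate 1 the difference was 0.79) and with low values set at the filter level (0.209). The remaining 2, Prm1 (0.58 ± 0.18, limma adjusted p = 0.0905) and Hspa2 (0.10 ± 0.10, 0.649), did not pass. Prm1 and Ldhc passed the filter through their knockout arrays alone, so the count for this list is a description. Among all 11897 genes tested 1.28% passed as higher and 2.27% as lower in knockout.

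Markers of other cell types were read as summed levels on each array, and their part in the Dmrta1 result was not tested. The sums add linear intensities, so the brightest probe sets weigh most in them. Summed over each list, stroma markers were lower on the knockout arrays (31935 to 33707 intensity units) than on the wild-type arrays (36039 to 39719), as were endothelial markers (1894 to 2278 against 2598 to 2973). Pregranulosa sums were higher on the knockout arrays (11778 to 13198 against 10771 to 11205), while germ cell sums overlapped (17431 to 22654 against 15755 to 19110). Of the pregranulosa genes 8 of 10 had a higher mean in knockout, while Foxl2 (-0.26) and Wnt4 (-0.08) were lower. A higher mean in knockout was also seen in 1 of 8 stroma, 1 of 6 endothelial and 6 of 9 germ cell genes tested. Of the tested genes 0 of 8 stroma and 0 of 10 pregranulosa genes passed, 2 of 6 endothelial genes fell (Flt1 and Tek), and 1 of 9 germ cell genes rose (Dppa3). Median differences were -0.23, 0.24, -0.38 and 0.19, beside 0.02 over all genes tested. Dppa3 read 1182, 197 and 76.8 intensity units in knockout and 12.2, 12.1 and 18.8 in wild type. In wild type only replicate 3 reached the filter level, so the germ cell count is a description. Of all genes tested 1.28% passed as higher and 2.27% as lower in knockout. Of 8 macrophage genes 2 fell (Ptprc and Mrc1), and 0 of 8 had a higher mean in knockout. Their median was -0.44, with overlapping sums (2491 to 4204 on knockout and 3868 to 4866 on wild-type arrays). Sertoli, mesonephros and surface epithelium markers had 0 of 6, 0 of 5 and 0 of 7 past the threshold, with overlapping sums and medians of -0.44, 0.13 and 0.25. Of 4 erythroid genes on the array 2 were tested, with a median of -1.04, and 1 fell, Slc4a1, the anion exchanger of red cells (-1.44 ± 0.33, SE, limma adjusted p = 0.0275). Erythroid sums were 320 to 485 on knockout and 481 to 1288 on wild-type arrays, where the ends of the ranges overlapped.

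Among 30 genes reported as bound by or responsive to DMRT1 in mouse germ cells or testis, the array held 29, of which 19 passed the filter. Of those 19, 17 did not pass, 2 rose and 0 fell, beside 1.28% higher and 2.27% lower among all 11897 genes tested. Their median was 0.08, beside 0.02 over all genes. Both that rose, Tesc and Sox2, passed the filter through their knockout arrays alone, and the list was chosen with earlier results of these data known. The count of 2 is therefore a description, and with the level required on all 6 arrays 0 of 15 passed. Tesc, which encodes a calcium-binding protein, read 74.7, 37.5 and 39.4 intensity units in knockout and 14.7, 10.9 and 14.0 in wild type, a difference of 1.88 ± 0.27 (SE, n = 3 per group, limma adjusted p = 0.00243). Sox2, a pluripotency factor, read 265, 95.6 and 23.9 in knockout and 4.23, 6.13 and 9.57 in wild type (3.75 ± 0.69, limma adjusted p = 0.00916). Wild-type values of both genes lay under the filter level, so these fitted differences are no bounds. Without knockout replicate 1 they were 1.56 for Tesc and 2.93 for Sox2. Nr5a1, a nuclear receptor of gonadal somatic cells, had groups that did not overlap and did not pass (0.50 ± 0.14, limma adjusted p = 0.0694, or 0.0254 with median centring). Tesc kept its call without any single array, and Sox2 lost it without wild-type replicate 1 (0.0523) and with low values set at the filter level (2.40, limma adjusted p = 0.0748). Stra8, also in this list, read 824, 469 and 479 intensity units in knockout and 575, 664 and 692 in wild type. The groups overlapped, and its difference of -0.17 ± 0.21 (SE) did not pass (limma adjusted p = 0.704).

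Genes whose log2 values over the 6 arrays were most like those of a tested member were Srl, Sap30 and S100g for Dmrta1 (Pearson correlation 0.995 to 0.997). For Dmrta2 they were Nkapl, Cct3 and Cabcoco1 (0.995 to 0.996), for Dmrtc1a Tmem268, Prss12 and 1700023D09Rik (0.99 to 0.996), and for Dmrtc2 Camsap1, Dgkd and Fignl1 (0.984 to 0.992). These describe 6 arrays that share 2 genotype groups. Of 11896 genes, 311 correlated over 0.9 with Dmrta1, 295 with Dmrta2, 74 with Dmrtc1a and 112 with Dmrtc2. Srl rose by 0.62 and Sap30 by 0.86, both with a limma adjusted p of 0.0442, while S100g did not pass (0.77, 0.0635).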

How the data were processed

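The authors deposited linear intensities per probe set, made with GCRMA per the submitters' processing notes; version and settings are not given in the sources used here. The deposited values were taken to log2 with no pseudocount. Of 45101 probe sets 64 controls were left out, and 22040 reached log2 4 on at least 3 of 6 arrays and were tested with limma 3.58.1 in R 4.3.3 (2-sided, genotype alone in the model, eBayes with its trend on intensity, Benjamini-Hochberg over all tested, threshold 0.05). A gene was read through its brightest probe set. Where a group lay under the filter level, folds are against that level. The number of arrays limits the precision, and no counts or depth apply.

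Symbols came from the platform annotation; 34741 of 34945 singly named probe sets were in the RefSeq table and 0 symbols changed. The members and lists were chosen with earlier results of these data known. Genes named are the members, list genes past the threshold or with the 3 smallest p, the 3 nearest in pattern to each tested member, and neighbours past the threshold or nearest. Some list genes fitting this rule are given as counts. Stra8 is named outside this rule, because its link to Dmrt1 is mentioned at the start. Foxl2 and Wnt4 are named outside it because they went against the pregranulosa sums. A comparison of the members' proteins was planned and not run, since no protein sequences were used here. The fit was tested on simulated arrays. Arrays correlated at 0.994 to 0.996 within groups and 0.988 to 0.991 between them, and 0 pairs were identical.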

Additional observations from a re-analysis of the deposited data

How the results depend on the processing

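Over all probe sets, 1455 passed (321 higher and 1134 lower in knockout). The count was 3282 with no filter, 956 and 737 with the stricter filters, and 808 to 1541 on leaving out 1 array, with 879, 808 and 910 without wild-type replicates 1, 2 and 3. Median centring moved the median of all tested probe sets by 0.14 log2 units, and the share of calls that were higher in knockout went from 22.1% to 51.8%. The cause of these changes was not tested, beyond the number of probe sets each filter left.

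The count of DMRT genes past the threshold, 1, was 0 with either stricter filter, the replicate block, low values set at the filter level or averaged probe sets, 2 with quantile normalization and median centring, and 0 to 1 on leaving out 1 array. Dmrta1 stayed at 0.68 in the alternatives that ended its call other than those leaving out an array (0.52 to 0.79), and Dmrta2, which passed the filter through its knockout arrays alone, was 0.70 under both normalizations that called it (0.45 to 0.66 on leaving out an array). Leaving out 1 array gave -0.55 to -0.23 for Dmrt1, -0.61 to -0.25 for Dmrt2, 0.18 to 1.09 for Dmrt3, 0.12 to 0.24 for Dmrtb1, 0.21 to 0.55 for Dmrtc1a and 0.22 to 0.42 for Dmrtc2. With low values set at the filter level, which removes differences under it, Dmrt1 and Dmrtb1 gave 0 and Dmrt2 -0.015, and median centring gave 0.30 for Dmrtb1. Dmrtc1a could not be tested after quantile normalization or median centring, where it fell under the filter.

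Results on other genes were put through the same alternatives, a choice made after seeing the data. Neighbours past the threshold numbered 2, or 1 with either stricter filter, without the trend, with the block or without the probe sets marked as shared between transcripts (_x_at, _s_at and _a_at), and 0 to 2 on leaving out 1 array, with 0 without knockout replicate 1, wild-type replicate 1 or wild-type replicate 3. Of the DMRT1-linked genes 2 passed, or 1 with the log2 5 filter, low values set at the filter level or without such probe sets, 0 with the level required on all arrays, 4 with array weights, and 1 to 4 on leaving out 1 array. Pou5f1 and Nanog were the additional genes with array weights and without knockout replicate 3.

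Same-numbered samples did not deviate together (correlations of deviations -0.17, -0.25 and -0.17), and 0 of 3 numbers matched best with their own, so the replicate block rests on numbers alone. Under it 1043 probe sets passed.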

Other observations

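A DMRT probe set outside the family as counted here, because the annotation gives it to both Dmrtc1c1 and Dmrtc1c2, was bright and varied within each group. It read 702, 495 and 701 intensity units in the knockout arrays and 653, 798 and 479 in the wild-type arrays. The groups overlapped, with a difference of -0.01 ± 0.21 (SE, n = 3 per group, 95% interval -0.47 to 0.45, limma adjusted p = 0.984). This shared probe set gave signal in these ovaries, without a value that can be assigned to either gene. Which of these copies gave the signal cannot be told.

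Elavl2 is an RNA-binding protein gene on the far side of Dmrta1, 1517 kb away. It read 1463 on knockout replicate 1 against 848 and 808 on the other knockout arrays and 690 to 774 in wild type. Its difference of 0.45 ± 0.21 did not pass (limma adjusted p = 0.255), and the value was singled out after it was seen.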
